A study of Mus musculus with 8 samples.

Results

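The olfactomedin genes Olfm1, Olfm2, Olfm3, Olfm4, Olfml1, Olfml2a, Olfml2b and Olfml3 were described in IL-6-treated mouse macrophages whose gene for the IL-6 receptor alpha chain, Il6ra, was floxed, with and without a Cre recombinase. They were taken by gene symbol: every probe set (the probes that measure 1 transcript cluster on the array) whose single annotated symbol was one of these 8 names. Each gene had 1 probe set, so the family was 8 of 35556 probe sets, or 8 of the 19938 genes measured. The family was chosen by the measured fall of Olfm1 in the cells labelled IL6raKO. Olfm1 was 1 of the 6 genes of the whole array at an adjusted p under 0.05 (limma, Benjamini-Hochberg over all genes). Its difference is therefore given as a description without a test, and the other 7 members follow from the family name.

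Macrophages were grown from bone marrow for 10 days in recombinant M-CSF (10 ng/ml), the cytokine that drives macrophage differentiation. They were starved of serum overnight and then exposed to recombinant IL-6 (50 ng/ml) for 4 h. Ctrl cells, 4 arrays, came from IL6ralpha flox/flox mice, whose receptor gene carries loxP sites but is intact. IL6raKO cells, 4 arrays, came from IL6ralpha flox/flox LysMCre tg/wt mice, in which a Cre recombinase driven by the lysozyme M gene removes the floxed part in myeloid cells. Both groups were thus floxed and both received IL-6, and only IL6raKO carried Cre, so loss of the receptor and other effects of Cre cannot be told apart. All arrays were of stimulated cells, so a difference that needs IL-6 and one present before it was added cannot be told apart either. The ages of the mice are not given in the labels, which call the arrays biological replicates without saying that each was a separate animal. The p-values then cover only the spread among the 8 cultures, which may be partly technical. Precision is set by the number of arrays.

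Olfactomedin proteins share a carboxy-terminal olfactomedin domain, a folded module for binding other proteins, and most of them are secreted glycoproteins of the extracellular space. The OLFM1, OLFM2 and OLFM3 proteins, also called noelins, are best known from the nervous system, where they associate with AMPA-type glutamate receptors. OLFM4 is known from the granules of a subset of neutrophils and from intestinal crypts, and OLFML3 as a matrix protein that acts on BMP signalling and is abundant in microglia, the macrophages of the brain. IL-6 acts through its receptor chain and gp130 on the transcription factor STAT3, which binds DNA at palindromes of the form TTCNNNGAA.

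Of the promoters, those of Olfm1 are shown because it is the member whose level separated the genotypes. RefSeq (GRCm38.p6) gives Olfm1 4 curated transcripts and lists 2 starts for it. The 250 bases before each start are printed 5′ to 3′ in the direction of the gene, with capitals marking GGGCGG, the GC box bound by SP1-type factors, here read on the opposite strand as CCGCCC. The first lies at chr2:28192843-28193092 (plus strand) and the second at chr2:28205439-28205688 (plus strand).
Olfm1 start 1: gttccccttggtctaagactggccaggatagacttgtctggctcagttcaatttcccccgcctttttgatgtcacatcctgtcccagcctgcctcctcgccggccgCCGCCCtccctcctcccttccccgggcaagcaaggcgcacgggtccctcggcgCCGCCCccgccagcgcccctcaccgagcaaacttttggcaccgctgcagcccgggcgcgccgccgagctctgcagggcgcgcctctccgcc
Olfm1 start 2: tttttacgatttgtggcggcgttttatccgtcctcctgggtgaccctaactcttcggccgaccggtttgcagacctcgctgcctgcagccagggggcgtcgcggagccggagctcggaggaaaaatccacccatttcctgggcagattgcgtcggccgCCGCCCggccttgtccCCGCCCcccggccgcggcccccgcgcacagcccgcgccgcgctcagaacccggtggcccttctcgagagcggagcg
Both Olfm1 windows were 69.2% G and C, and each held 2 GC boxes. Neither held the STAT motif TTCNNNGAA or the TATA box TATAAA, and the ETS core GAGGAA, bound by the macrophage factor PU.1, was found once, before the second start, at bases 134 to 129 upstream.

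All 8 members had at least 1 promoter window in the RefSeq table, 12 windows in all, and each motif was searched on both strands of the 250 bases. A STAT motif stood in 2 of these 12 windows, against 7.02% of all 32851 windows of the same length. The matches were before Olfml1 and Olfml2a, shown here because they are the members that hold the motif of the IL-6 pathway, with TTCNNNGAA in capitals. They lie at chr7:107567229-107567257 (plus strand) and chr2:38931773-38931801 (plus strand), respectively.
Olfml1: ctaacagaacTTCTTGGAAaaagatccta
Olfml2a: ggtccctcatTTCACAGAAcctgacccca
A GC box stood in 8 of the 12 windows, from 6 genes (32.7% of all windows). The TATA box stood in 0 of 12 (12.4% of all windows) and the ETS core in 3 of 12 (23.3% of all windows). A match describes the letters only and is not a measured binding site.

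The arrays themselves can be summarised briefly. Median log2 values ranged from 6.31 to 6.35 over the 8 arrays, and Ctrl replicate 4 stood apart on the first principal component (21.6, against -6.6 to 4.82 for the others). Il6ra, the targeted gene, was at 8.42 ± 0.02 in Ctrl and 7.92 ± 0.14 in IL6raKO (log2 expression, SD, n = 4 each), with no overlap. The IL6raKO level was 70.6% of Ctrl and the difference was not called (limma adjusted p = 0.0607), so Il6ra signal remained in these arrays. Whether its probes lie inside the floxed part is not given in the sources used here, and the value therefore does not show how much intact receptor transcript was left. All 9 measured macrophage markers lay above the 95th percentile (6.52) of the 1027 olfactory receptor genes, which served as a gauge of dim probe sets. Of 12 neuronal markers 0 did so, of 12 stromal markers 5, of 14 neutrophil markers 4 and of 13 mast cell and basophil markers 3.

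Olfml3 was the brightest member on these arrays, and Olfml1 and Olfm3 the dimmest. The mean log2 expression over the 8 arrays was 9.13 for Olfml3, 6.55 for Olfm1, 6.52 for Olfm2, 5.93 for Olfml2b, 5.59 for Olfml2a, 5.29 for Olfm4, 4.13 for Olfm3 and 3.90 for Olfml1. Brightness also depends on the probes of each set, so this order is one of signal and not of transcript number. Olfml3 lay at percentile 88.1 of all genes and above 100% of the olfactory receptor genes. Olfm1 and Olfm2 lay at percentiles 52.6 and 51.8 of all genes, brighter than 95.7% and 94.9% of the olfactory receptor genes. Olfml2b and Olfml2a followed at percentiles 38 and 30, and Olfm4 at 23.4. Olfm3 at percentile 7.0 and Olfml1 at 5.12 were brighter than only 31.5% and 24.9% of the olfactory receptor genes. Along this order, the ranges over the 8 arrays overlapped between Olfm1 and Olfm2, between Olfml2b and Olfml2a, between Olfml2a and Olfm4 and between Olfm3 and Olfml1. They did not overlap between Olfml3 and Olfm1, between Olfm2 and Olfml2b or between Olfm4 and Olfm3.

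**Figure D1:**
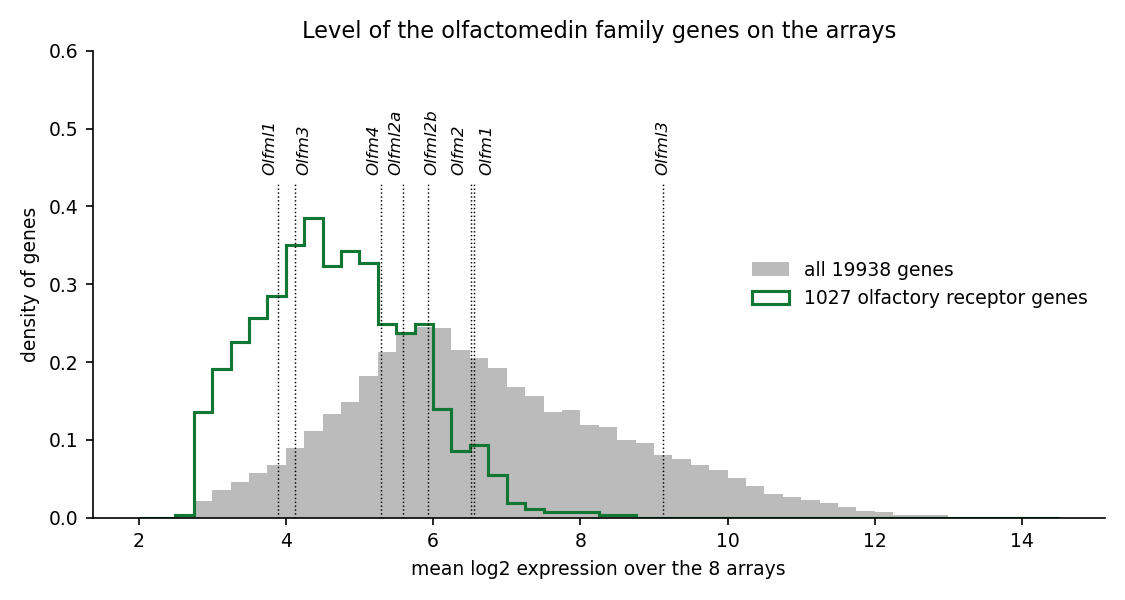
Distribution of the mean log2 expression over the 8 arrays (x axis) for all 19938 genes (grey, density) and for 1027 olfactory receptor genes (green outline), with dotted lines at the 8 olfactomedin genes. Olfml3 stands at 9.13 among well expressed genes, Olfm1 (6.55) and Olfm2 (6.52) at the upper edge of the olfactory receptor genes, and Olfm3 (4.13) and Olfml1 (3.90) in their lower part.

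Olfm1, the gene of the noelin that is also called pancortin, was lower in every IL6raKO array than in every Ctrl array. Its log2 expression was 6.75, 6.80, 6.77 and 6.94 in Ctrl replicates 1 to 4, and 6.20, 6.26, 6.26 and 6.44 in IL6raKO replicates 1 to 4. The groups were separated by 0.31, the distance from the lowest Ctrl to the highest IL6raKO value, which was wider than the range within Ctrl (0.19) or within IL6raKO (0.24). Replicate 4 was the highest of its group in both genotypes. The means were 6.82 ± 0.08 in Ctrl and 6.29 ± 0.11 in IL6raKO (SD, n = 4 each). The difference of -0.52 (SE 0.07) put IL6raKO at 69.5% of the Ctrl level. All 4 IL6raKO values lay below 6.52, the 95th percentile of the olfactory receptor genes, and RMA values of such dim probe sets understate real differences, which limits this percentage too. In RNA from whole cultures, fewer cells of a type and less RNA per cell cannot be told apart. The 1 probe set does not show from which of the 2 starts the Olfm1 transcripts came.

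Markers of macrophages and of other cells were read beside the Olfm1 values. The 12 neuronal markers, read because noelins are neuronal genes, had a summed level (sum of values turned back from log2) of 500 to 559 in Ctrl and 475 to 528 in IL6raKO. On the lower side in IL6raKO were 8 of the 12, with a median difference of -0.06, 0 called by limma and 1 (Syt1) at an unadjusted p under 0.05. Over all genes 54.2% were on the lower side, 0.0301% were called and 7.28% had an unadjusted p under 0.05. For the 13 mast cell and basophil markers the sum was 941 to 1669 in Ctrl and 781 to 1264 in IL6raKO. All 13 of these were on the lower side in IL6raKO, with a median difference of -0.14, 0 called by limma and 0 at an unadjusted p under 0.05. For the 14 neutrophil markers the sum was 2947 to 3671 in Ctrl and 2871 to 3206 in IL6raKO, with 10 on the lower side, a median of -0.10, 0 called and 1 (Mpo) at an unadjusted p under 0.05 in limma. Most of the neutrophil sum came from Mmp8, by far the brightest of that list (10.85 to 11.39 over the 8 arrays). All 7 B cell markers were on the lower side (median -0.10, sum 345 to 393 in Ctrl and 328 to 351 in IL6raKO), with 0 called and 0 at an unadjusted p under 0.05 in limma. Of the 9 T and NK cell markers 7 were on the lower side (median -0.07, sum 494 to 521 and 462 to 512), with 0 called by limma and 3 at an unadjusted p under 0.05, of which Cd3d and Cd8a were lower and Cd3g higher. Of the 12 stromal markers 9 were on the lower side (median -0.05, sum 1251 to 1687 and 1056 to 1658), with 0 called by limma and 1 (Lum) at an unadjusted p under 0.05. Of 7 epithelial markers 5 were on the lower side (median -0.03), and of 8 endothelial markers 4 (median 0.02). Of 6 microglial markers 2 were on the lower side (median 0.05), and of 9 macrophage markers 5 (median -0.01). In these lists 0 were called by limma. Only Fcrls (microglial) and Fcgr1 (macrophage), both lower, had an unadjusted p under 0.05. The part of any of these markers in the Olfm1 difference was not tested. Without Ctrl replicate 4, the array with the highest mast cell and basophil sum (1669), the Olfm1 difference was -0.48. Like Olfm1, Cpa3 was lowest in replicate 1 and highest in replicate 4 of Ctrl (7.93 and 9.17) and of IL6raKO (7.39 and 8.55). Mcpt8 showed the same order, while Kit and Mcpt4 of this list did not.

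Of the other 7 members, 0 were called at an adjusted p under 0.05 (limma, Benjamini-Hochberg over all genes), where 0.0301% of all genes were called. At an unadjusted p under 0.05 the count was also 0 of 7, where 7.28% of all genes passed, so a count of 0 among so few genes is near the background. Of these 7 genes, 4 were on the higher and 3 on the lower side in IL6raKO, with differences from -0.12 to 0.18 and a median of 0.01, beside a median of -0.01 over all genes. In size, their median difference was 0.05, and that of all genes 0.06. The 4 IL6raKO values overlapped the 4 Ctrl values in all 7, while 4.44% of all genes had no overlap in either direction. Adjusted p-values lay between 0.698 for Olfm2 and 0.991 for Olfml1.

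**Figure D2:**
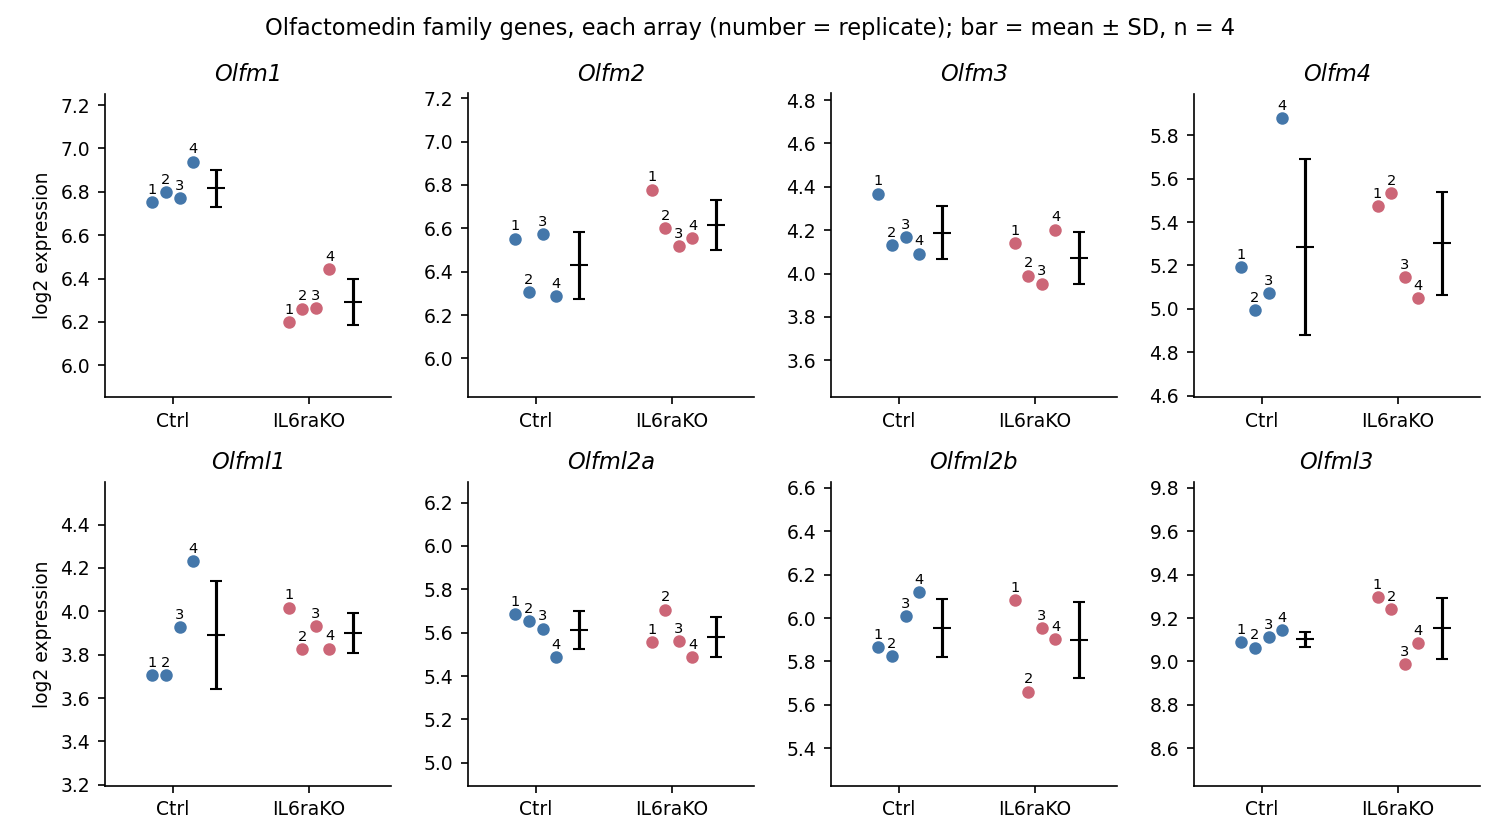
Log2 expression (y axis, on the same span in every panel, centred on the gene's own mean) of the 8 olfactomedin genes in each of the 4 Ctrl arrays (blue) and 4 IL6raKO arrays (red), numbered by replicate, with mean ± SD in black. The groups are apart for Olfm1 and overlap for the other 7 genes; Ctrl replicate 4 is high for Olfm4 (5.88) and Olfml1 (4.23).

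Olfm2, the noelin closest to Olfm1 in brightness, lay on the opposite side. It was at 6.55, 6.31, 6.57 and 6.29 in Ctrl replicates 1 to 4, and at 6.78, 6.60, 6.52 and 6.55 in IL6raKO replicates 1 to 4. All 4 IL6raKO arrays were above the Ctrl mean of 6.43 ± 0.15 (SD, n = 4), but IL6raKO replicates 3 and 4 lay below Ctrl replicate 3. The difference was 0.18 (SE 0.09, 95% confidence interval -0.01 to 0.38) and did not pass (limma adjusted p = 0.698). On the linear scale the interval ran from 99.4% to 130% of Ctrl.

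Olfm3, the noelin known from the retina, was among the dimmest genes of the array. Ctrl replicates 1 to 4 were at 4.37, 4.13, 4.17 and 4.09, and IL6raKO replicates 1 to 4 at 4.14, 3.99, 3.95 and 4.20. Ctrl replicate 1 was the highest value, and the remaining arrays of both genotypes were interleaved. The difference of -0.12 (SE 0.08, 95% confidence interval -0.30 to 0.06) did not pass (limma adjusted p = 0.775). The limit of dim probe sets given for Olfm1 also applies to the intervals of Olfm3, Olfm4, Olfml1, Olfml2a and Olfml2b. Olfm2, with a mean of 6.52, lay at the edge of it.

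Olfm4, the gene of the neutrophil granule protein, varied more between replicates than any other member. It was at 5.19, 4.99, 5.07 and 5.88 in Ctrl replicates 1 to 4 and at 5.47, 5.53, 5.15 and 5.05 in IL6raKO replicates 1 to 4. Its replicate SD within genotypes, 0.333, lay at percentile 99.4 of all genes, against 35.8 for Olfm1. The high value belonged to Ctrl replicate 4, which exceeded the mean of the other Ctrl arrays by 0.79, and in IL6raKO replicates 1 and 2 lay above replicates 3 and 4. The difference between genotypes was 0.02 (SE 0.18, 95% confidence interval -0.38 to 0.41, limma adjusted p = 0.99), so the interval reached from 77.1% to 133% of the Ctrl level. Without Ctrl replicate 4 the difference was 0.22, still not called.

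In Ctrl replicate 4, several marker lists stood high beside Olfm4, and in the IL6raKO arrays neutrophil markers differed in whether they followed it. Of the 14 neutrophil markers, 12 were higher in Ctrl replicate 4 than in each other Ctrl array, with a median excess of 0.22 over their mean, where 35.2% of all genes were highest in this array. The same held for 9 of the 13 mast cell and basophil markers, whose summed level was 1.52 times the mean of the others. It also held for 4 of 7 epithelial, 4 of 7 B cell, 3 of 6 microglial and 5 of 12 neuronal markers, with median excesses of 0.14, 0.12, 0.12 and 0.08. The share was below that of all genes for 3 of 12 stromal, 2 of 8 endothelial and 3 of 9 T and NK cell markers. Their median excesses were 0.04, -0.03 and 0.08, and that of all genes was 0.04. Of the 9 macrophage markers, 8 were lower than in each other Ctrl array, as were 23.4% of all genes. The summed neutrophil level was lower in this array (2947, against 3083 to 3671), because Mmp8, the brightest of the list, was at 10.85 against 11.11 to 11.39. Lcn2, which encodes a specific granule protein, was at 7.37, 6.98, 7.18 and 7.51 in Ctrl replicates 1 to 4 and at 6.47, 6.93, 7.23 and 7.63 in IL6raKO replicates 1 to 4. Its highest value was thus in IL6raKO replicate 4, where Olfm4 was lowest of its group (5.05). Ngp, another granule protein gene, was likewise higher in IL6raKO replicate 4 (7.63) than in Ctrl replicate 4 (7.12), and in IL6raKO replicates 1 and 2, where Olfm4 was higher, it was at 6.43 and 6.67. Ly6g, at 4.94, 5.24, 4.66 and 4.58 in IL6raKO replicates 1 to 4, had the same order as Olfm4 in these arrays. Retnlg, at 5.12, 5.06, 5.04 and 4.91, was also lowest in IL6raKO replicate 4, as was Camp (5.91). Other markers went against Olfm4, as Lcn2 and Ngp did. S100a9 (6.36 and 7.51), Ltf (5.24 and 5.88) and Ctsg (4.78 and 5.64) were lowest in IL6raKO replicate 1 and highest in replicate 4. Cxcr2 was lowest in IL6raKO replicate 1 (5.43) and at 6.31 in replicates 3 and 4. The remaining markers of the list followed neither order. The part of neutrophils and other cells in the Olfm4 value was not tested.

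Olfml1, a secreted olfactomedin-like protein, showed the same array on top. It was at 3.71, 3.70, 3.93 and 4.23 in Ctrl replicates 1 to 4 and at 4.02, 3.83, 3.93 and 3.83 in IL6raKO replicates 1 to 4. Ctrl replicate 4 exceeded the mean of the other Ctrl arrays by 0.45, an excess at percentile 98.7 of all genes, and that of Olfm4 was at percentile 100. The difference between genotypes was 0.01 (SE 0.11, 95% confidence interval -0.23 to 0.25, limma adjusted p = 0.991).

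Olfml2a and Olfml2b encode the photomedins, secreted proteins that bind chondroitin sulphate. Olfml2a was the steadiest member, with all 8 arrays between 5.49 and 5.71. Ctrl replicates 1 to 4 were at 5.69, 5.65, 5.62 and 5.49, and IL6raKO replicates 1 to 4 at 5.56, 5.71, 5.56 and 5.49. Replicate 4 was the lowest of its group in both genotypes, and the difference between genotypes was -0.03 (SE 0.07, 95% confidence interval -0.19 to 0.12, limma adjusted p = 0.944). Olfml2b was at 5.87, 5.83, 6.01 and 6.12 in Ctrl replicates 1 to 4 and at 6.08, 5.66, 5.95 and 5.90 in IL6raKO replicates 1 to 4. IL6raKO replicate 2 was its lowest value and Ctrl replicate 4 its highest. The difference of -0.06 (SE 0.10, 95% confidence interval -0.27 to 0.16) did not pass (limma adjusted p = 0.927). Of the members with a STAT motif before the start, Olfml1 and Olfml2a, neither was called, where 0.0301% of all genes were called. A relation between the motif and the differences was not tested.

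Olfml3 was the only member brighter than every olfactory receptor gene, so its signal was measured farthest above the dim probe sets. It was at 9.09, 9.06, 9.11 and 9.15 in Ctrl replicates 1 to 4, a range of 0.08, and at 9.30, 9.24, 8.99 and 9.09 in IL6raKO replicates 1 to 4, a range of 0.31. IL6raKO replicates 1 and 2 lay above all Ctrl arrays and replicate 3 below them. The difference was 0.05 (SE 0.07, limma adjusted p = 0.907), and its 95% confidence interval of -0.11 to 0.21 corresponds to 92.4% to 116% of Ctrl. Microglial markers were mostly dim in these bone marrow-derived cells, with 2 of 6 measured (Fcrls and Gpr34) above the 95th percentile of the olfactory receptor genes.

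**Figure D3:**
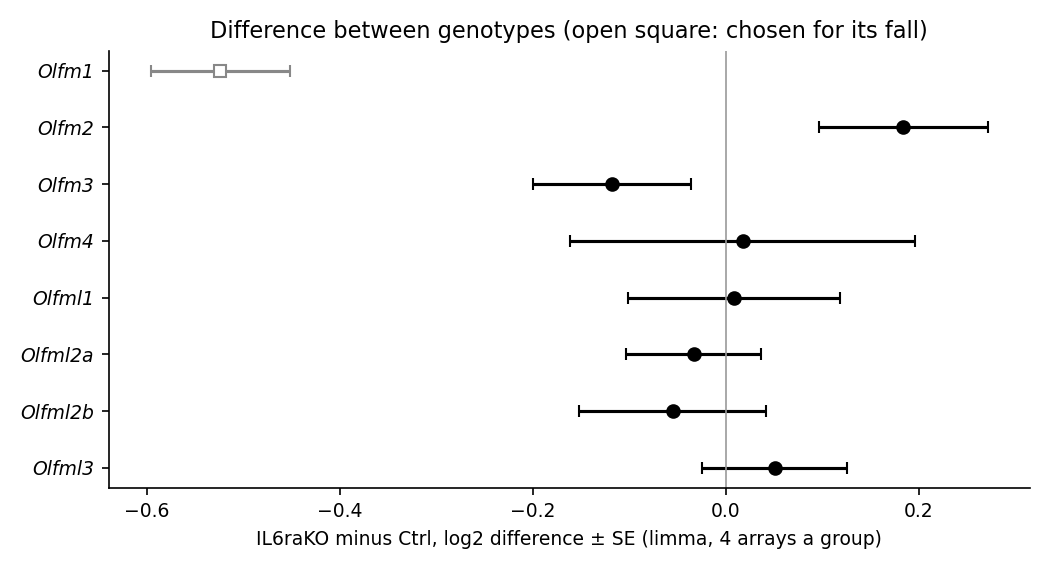
Difference in log2 expression between IL6raKO and Ctrl (x axis, limma estimate ± SE, 4 arrays a group) for the 8 olfactomedin genes. Olfm1 (open square, chosen for its fall) is at -0.52, and the other 7 lie between -0.12 for Olfm3 and 0.18 for Olfm2.

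Leaving out each array in turn kept Olfm1 between -0.57 and -0.48. Olfm2 stayed on the higher side (0.13 to 0.23) and Olfm3 on the lower side (-0.16 to -0.06), while Olfm4 (-0.08 to 0.22), Olfml1 (-0.05 to 0.12) and Olfml2b (-0.12 to 0.02) changed sign. None of the other 7 members was called in any of these 8 fits. The number of genes called over the whole array fell from 6 to 0 or 1 in them, and Olfm1 was not among those called. The single call came when IL6raKO replicate 1 or 2 was dropped, and dropping any other array left 0.

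**Figure D4:**
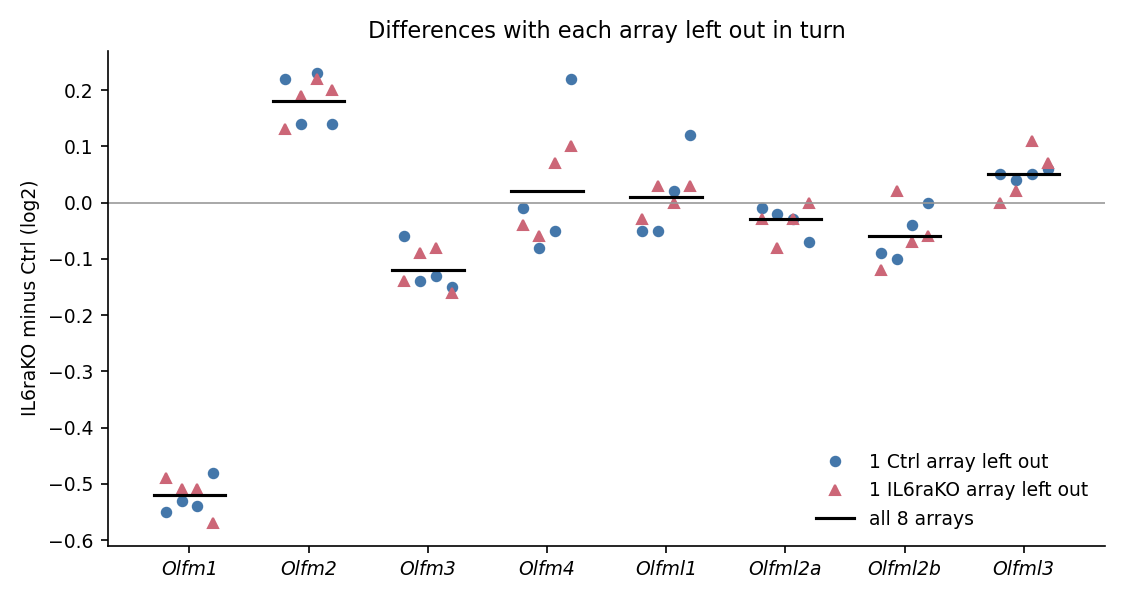
Difference between IL6raKO and Ctrl (y axis, log2) for each olfactomedin gene with all 8 arrays (black bar) and with 1 Ctrl array (blue circles) or 1 IL6raKO array (red triangles) left out. Olfm1 stays between -0.57 and -0.48, and the widest spread is that of Olfm4, which reaches 0.22 without Ctrl replicate 4.

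The genes whose values across the 8 arrays were most like those of Olfm1 were Tgfbi, Pgap6, Stat3, Nfil3, Ifitm1, Olfr676, Ifitm3 and Il4ra. Likeness was the root mean square difference over the 8 arrays after each gene was centred on its own mean, in log2 units. It mostly reflects the difference between the genotypes, for which Olfm1 was chosen, and no test belongs to it. Tgfbi, which encodes an extracellular matrix protein induced by TGF-beta, was closest at 0.06. It was at 11.45, 11.50, 11.34 and 11.61 in Ctrl replicates 1 to 4 and at 10.79, 10.98, 11.00 and 11.06 in IL6raKO replicates 1 to 4. Like Olfm1, it was highest in replicate 4 and lowest in IL6raKO replicate 1. The other 7 genes lay at 0.081 (Pgap6) to 0.106 (Il4ra), against a median of 0.289 over all genes. Among the olfactomedin genes, Olfm3 was closest to Olfm1 at 0.244, with 17% of all genes closer, and Olfm2 the farthest at 0.398, with 96.9% closer.

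**Figure D5:**
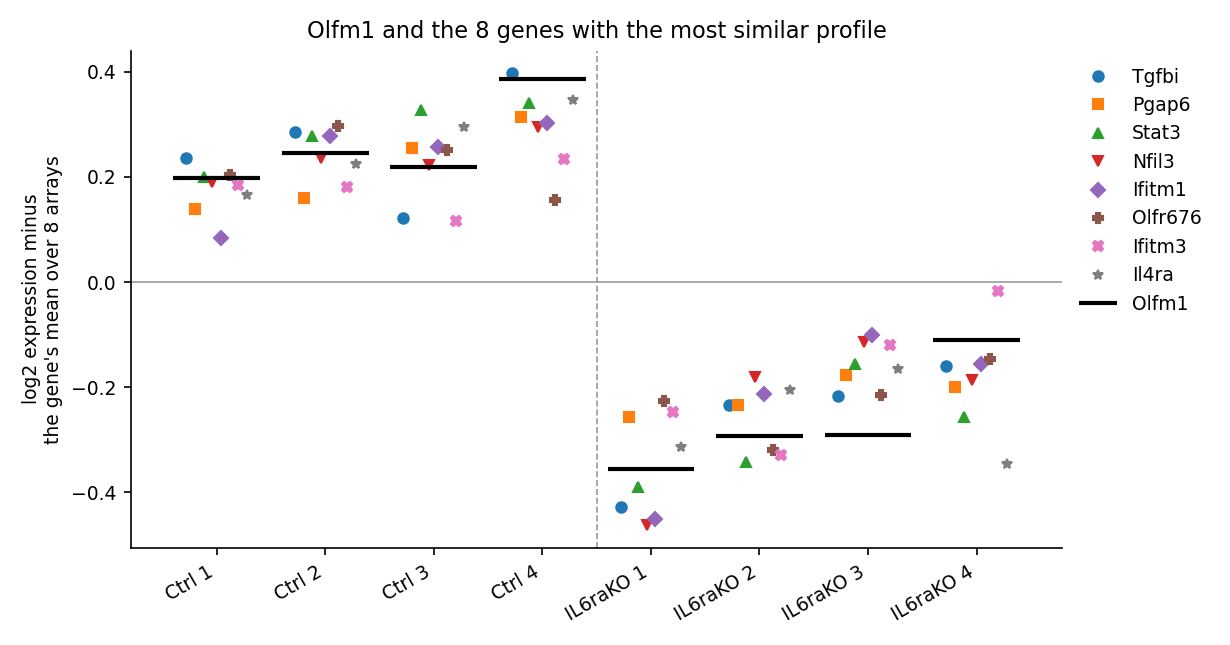
Log2 expression minus the gene's own mean over the 8 arrays (y axis) in each array (x axis) for Olfm1 (black bars) and the 8 genes most like it (coloured symbols); the dashed line divides the genotypes. All 9 genes lie above 0 in the Ctrl arrays and below 0 in the IL6raKO arrays, and Tgfbi, the closest, differs from Olfm1 by a root mean square of 0.06.

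The 3 measured genes on each side of Olfm1 in the RefSeq gene order were read to see how its surroundings behaved. On one side were Col5a1, a fibrillar collagen gene, Gm13372 and Fcnb, the gene of ficolin B, a lectin of myeloid cells. On the other were Ppp1r26, 1700007K13Rik and Mrps2, the last a mitochondrial ribosomal protein gene. Fcnb, the nearest on its side, was at 6.37 ± 0.22 in Ctrl and 6.28 ± 0.20 in IL6raKO (SD, n = 4 each), a difference of -0.09 (95% confidence interval -0.35 to 0.17). Ppp1r26, the nearest on the other side, had the widest difference of the 6, -0.17 (95% confidence interval -0.36 to 0.03, limma adjusted p = 0.715). Of these 6 genes 0 were called by limma, 0 also at an unadjusted p under 0.05, and the values of the genotypes overlapped in all 6. Over all genes 0.0301% were called, 7.28% had an unadjusted p under 0.05 and 4.44% had no overlap. Counts of 0 among 6 genes are thus near the background.

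Other proteins carry an olfactomedin domain too. The latrophilins, adhesion receptors encoded by Adgrl1, Adgrl2 and Adgrl3, and gliomedin, encoded by Gldn, were measured. By limma, 0 of these 4 were called and 0 had an unadjusted p under 0.05, where 0.0301% and 7.28% of all genes passed. The median difference of the 4 was 0.05, beside -0.01 for all genes. Adgrl2 was bright (11.17 ± 0.10 in Ctrl and 11.22 ± 0.04 in IL6raKO, SD, n = 4 each) and differed by 0.05 (SE 0.07, limma adjusted p = 0.89). Gldn, at 5.56 ± 0.27 and 5.65 ± 0.18, differed by 0.09 (SE 0.13).

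Reported binding partners of the noelins, from AMPA receptor subunits to the Nogo receptor, were not called. Of 15 measured, 0 were called by limma and 0 had an unadjusted p under 0.05, where 0.0301% and 7.28% of all genes passed. On the lower side were 8 and on the higher side 7, and the median was -0.01. The glutamate receptor genes Gria3 and Gria2 had the lowest p-values, with differences of -0.19 (SE 0.09, limma adjusted p = 0.694) and -0.11 (SE 0.08, limma adjusted p = 0.789), at dim levels of 4.79 and 3.78 in Ctrl. Only Rtn4, Ngfr and App of this list exceeded the 95th percentile of the olfactory receptor genes. App, the amyloid precursor gene, was at 11.49 ± 0.08 in Ctrl and 11.50 ± 0.02 in IL6raKO (SD, n = 4 each).

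Ligands and relatives of the latrophilin system gave 0 calls in limma among 13 measured genes, where 0.0301% of all genes were called. An unadjusted p under 0.05 was found for 2 (Flrt1 and Flrt2), where 7.28% of all genes passed, and the median was -0.01. Flrt2, which encodes an adhesion protein that binds latrophilins, was at 9.01 ± 0.08 in Ctrl and 9.43 ± 0.14 in IL6raKO (SD, n = 4 each) without overlap. Its difference of 0.42 (SE 0.08) did not pass (limma adjusted p = 0.237). It was the 1 member of this list with all IL6raKO values above all Ctrl values, as were 2.07% of all genes. Flrt1 differed by 0.17 (SE 0.07, limma adjusted p = 0.669).

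Of 10 measured partners and regulators reported for OLFM4, 0 were called by limma, 1 (Ctsc) had an unadjusted p under 0.05, and the median was 0.00. Ctsc, encoding cathepsin C, a protease that OLFM4 is reported to inhibit, differed by -0.24 (SE 0.08, limma adjusted p = 0.625). Notch1 differed by -0.14 (SE 0.07, limma adjusted p = 0.708). Of 17 BMP and tolloid genes, listed because OLFML3 is reported to act on BMP signalling, 0 were called by limma, 0 also at an unadjusted p under 0.05, with a median of 0.01. Beside both lists, 0.0301% of all genes were called and 7.28% had an unadjusted p under 0.05. Id1, a BMP target gene, differed by -0.12 (SE 0.07, limma adjusted p = 0.715) and the ligand gene Bmp2 by 0.15 (SE 0.09, limma adjusted p = 0.725).

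In the IL-6 receptor to STAT3 pathway, 1 of 19 measured genes was called, where 0.0301% of all genes were called. An unadjusted p under 0.05 (limma) was found for 5 of the 19, where 7.28% of all genes passed. The median difference was -0.04, beside -0.01 for all genes. Stat3 fell by 0.57 (SE 0.07, limma adjusted p = 0.0348), from 9.77 ± 0.06 in Ctrl to 9.20 ± 0.10 in IL6raKO (SD, n = 4 each). Il6ra differed by -0.50 (SE 0.07, limma adjusted p = 0.0607). In 4 of the 19, Il6ra, Stat3, Bcl3 and Nfil3, all IL6raKO values lay below all Ctrl values, as in 2.37% of all genes. These genes come from the same comparison that brought up Olfm1, and their results were known when the list was drawn up. With any 1 array left out, 0 of the 19 were called.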

How the data were processed

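RNA from 8 cultures was labelled with biotin by an Affymetrix whole-transcript assay, per the labels' protocols. The values the authors deposited are log2 expression, judged from their range of 1.96 to 14.2, with 1 value for each probe set on each array. The submitters' processing notes name RMA (background correction, quantile normalization and probe summary) and R 2.13.1. The build and any filter: not given in the sources used here.

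Probe sets were named through GEO's platform annotation: 21789 of 35556 had 1 symbol, 1621 several and 12146 none. The identifiers of 21698 were found in the RefSeq gene table (GRCm38.p6). Where several probe sets carried a symbol (999 genes), the brightest was used, which gave 19938 genes.

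IL6raKO minus Ctrl was fitted with limma 3.58.1 (lmFit, eBayes) in R 4.3.3 on all 8 arrays, with no covariate or filter, Benjamini-Hochberg adjustment over all genes and a two-sided threshold of 0.05. The procedure was also run on simulated data with normal noise. That simulation modelled neither an outlying array nor the understated differences of dim probe sets. Lists are described by counts and medians. Genes named were the members, Il6ra, the 8 genes of smallest root mean square difference from Olfm1 (no unnamed models, microRNA or snoRNA genes), the 3 measured neighbours on each side of Olfm1, and called list members with the 2 of lowest p. Marker genes, App and other list examples were named after their values were seen. Motifs were searched in the RefSeq promoter table. Alternatives were another variance model, a replicate block, 2 filters on dim genes, 2 normalizations, array weights, other uses of probe sets, and each array left out. The members and lists were chosen with earlier results of these data known.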

Additional observations from a re-analysis of the deposited data

Results flagged for a closer look

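Each of 33 named genes was checked in both genotypes, 66 sets of 4 arrays, and in 2 sets a single array lay far outside the rest; about 3.3 such sets arise by chance. Gria3, a glutamate receptor gene, reached 5.0 in Ctrl replicate 1, while the remaining controls held 4.69 to 4.74. Bmp2 was low in IL6raKO replicate 1 (5.03), while the remaining IL6raKO arrays held 5.25 to 5.29. Neither set belonged to an olfactomedin gene.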

How the results depend on the processing

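Across the 17 alternatives, 0 of the other 7 olfactomedin genes were called in any, although the filters on dim genes tested only some of the members: 3 of the 8 lay above the median level and 5 above the 25th percentile. The Olfm1 difference lay between -0.55 and -0.51 in the alternatives that kept all arrays, and Olfm1 was among the called genes in 6 of the 17. As Olfm1 was chosen for its fall in these arrays, that count describes how the choice depended on the processing and is not a test. The count of called genes over the array, 6, was 22 with a trended and robust variance, 11 above the median level and 11 above the 25th percentile of level, 3 with quantile normalization applied again, 0 with every probe set tested (2124 at an unadjusted p under 0.05 in limma), and 0 to 1 with 1 array left out. The 1 call in the IL-6 pathway list became 4 with the trended and robust variance, 3 above the median level, 2 above the 25th percentile, 2 with 75th percentile centring, 0 with every probe set and 0 with any 1 array left out. The latrophilin list gained 1 call, Flrt2, with the trended and robust variance. Centring turned Olfm4 to -0.01 and Olfml1 to -0.02. With 1 array left out, Olfm4 ranged from -0.08 to 0.22, Olfml1 from -0.05 to 0.12 and Olfml2b from -0.12 to 0.02. The cause of these changes was not tested, and with arrays left out fewer samples entered.

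With the replicate number as a block, 0 genes were called over all genes and 0 in the IL-6 pathway list (limma, 1455 at an unadjusted p under 0.05). Deviations of same-numbered arrays correlated between -0.011 and 0.041, and only number 3 correlated best with its own. Over all genes no shared effect of the number was thus visible, which does not cover single genes. Olfm1, Cpa3 and Mcpt8 were lowest in replicate 1 and highest in replicate 4 of both genotypes, and Olfml2a was lowest in replicate 4 of both. The correlations also do not show whether same-numbered cultures were prepared together.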

Other observations

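Olfm5, a related gene that was not among the 8, also had a probe set. Its log2 expression was 5.74, 6.0, 5.84 and 6.0 in Ctrl replicates 1 to 4 and 5.96, 5.78, 5.81 and 5.94 in IL6raKO replicates 1 to 4. The genotypes were interleaved, with a difference of -0.02 (SE 0.08, limma adjusted p = 0.965).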
